A study of Homo sapiens with 6 samples.

Results

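The genes that make cholesterol and fatty acids, together with the genes that control them, were examined in SKOV3 cells, a human ovarian cancer cell line, after knockdown of EIF5A2. A list of 34 gene symbols was matched to the 58825 Ensembl gene identifiers of the deposited table, and all 34 were found and passed the filter on low counts. Messenger RNA was sequenced from cells transfected with RNAi negative control (NC, n = 3 libraries) or with si-EIF5A2, a siRNA against EIF5A2 (the knockdown, n = 3 libraries), 48 h after transfection according to the series description. All libraries came from a single cell line, the knockdown was transient and its siRNA is a single duplex in the methods, so effects of EIF5A2 and of that duplex on other transcripts cannot be told apart. The labels do not say whether the 3 libraries of a group came from separate cultures, so the p-values measure the spread between these libraries, which may be technical. In whole-culture RNA, fewer cells of a kind and less RNA per cell cannot be told apart either.

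Cells make cholesterol from acetyl-CoA through mevalonate, farnesyl diphosphate and squalene, and they make fatty acids from the same acetyl-CoA through malonyl-CoA. Both routes are switched on by the sterol regulatory element binding proteins (SREBPs). SREBP precursors sit in the membrane of the endoplasmic reticulum with their escort SCAP, are held there by INSIG proteins when sterols are plentiful, and are cut free in the Golgi when sterols run low. SREBP2, from SREBF2, is best known for the cholesterol genes, and the SREBP1c form of SREBF1 for the fatty acid genes. Liver X receptors (LXRs) answer to oxidized sterols and switch on sterol export genes. The 34 genes were therefore read in 4 classes: 20 SREBP2-type genes, 7 SREBP1-type genes, 3 LXR-type genes (ABCA1, ABCG1 and MYLIP) and 4 regulators (SREBF1, SREBF2, SCAP and INSIG2).

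The libraries held 46900204 to 74142267 estimated counts. The targeted gene, EIF5A2, was at 27.8, 29.8 and 29.9 CPM (counts scaled to a library total of 1000000 after TMM normalization) in NC and at 2.76, 4.04 and 4.27 CPM after knockdown, so every library fitted its label. Its level after knockdown was 12.7% of that in NC (log2 fold change -2.98, SE 0.18). Of the epithelial markers, the keratins KRT8, KRT18 and KRT7 were at 349 to 659, 297 to 457 and 201 to 407 CPM, while KRT19 (2.24 to 3.85 CPM), EPCAM (1.15 to 1.68 CPM), CDH1 (0.172 to 1.0 CPM) and MUC1 (0 to 0.113 CPM) were low or near 0 in this line. Of the leukocyte markers, PTPRC and CD3E were at 0 in every library and CD68, a lysosomal protein gene, was at 28.97 to 57.3 CPM (means of 46.3 CPM in NC and 39.1 CPM after knockdown). Endothelial, fibroblast and hepatocyte markers were at most at 2.04 CPM.

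Most genes of the cholesterol class rose after EIF5A2 knockdown, while the 7 SREBP1-type genes did not pass the same limits. A gene was called when it met both limits, an adjusted p below 0.05 (quasi-likelihood F-test of edgeR, Benjamini-Hochberg adjusted over all genes tested) with a change of more than 1.5-fold. Of the 20 SREBP2-type genes, 12 rose, 0 fell and 8 were not called (12 and 0 with DESeq2, and 0 lower at an unadjusted p below 0.05). Among all 16208 genes tested, 11.1% were called higher and 13.6% lower. The median log2 fold change of the SREBP2-type genes was 0.80, against -0.010 for all genes tested. Of the 7 SREBP1-type genes, 0 were called in either direction by edgeR or DESeq2, 3 were higher at an unadjusted p below 0.05, and their median was 0.071. With an adjusted p alone and no limit on the fold change, 15 SREBP2-type genes and 1 SREBP1-type gene passed as higher, against 18.0% of all genes tested. Among the 3 LXR-type genes ABCG1 fell and 2 were not called. These 2, ABCA1 and MYLIP, were higher at an unadjusted p below 0.05. Of the 4 regulators, 0 were called by edgeR or DESeq2 (1, SREBF1, was lower at an unadjusted p below 0.05). The classes were compared by counts and medians and not by a test between them. They were drawn with earlier results of these data known, so the contrast depends on that choice. Of the 116 other lipid genes tested, outside these classes, 16 rose and 18 fell.

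**Figure D1:**
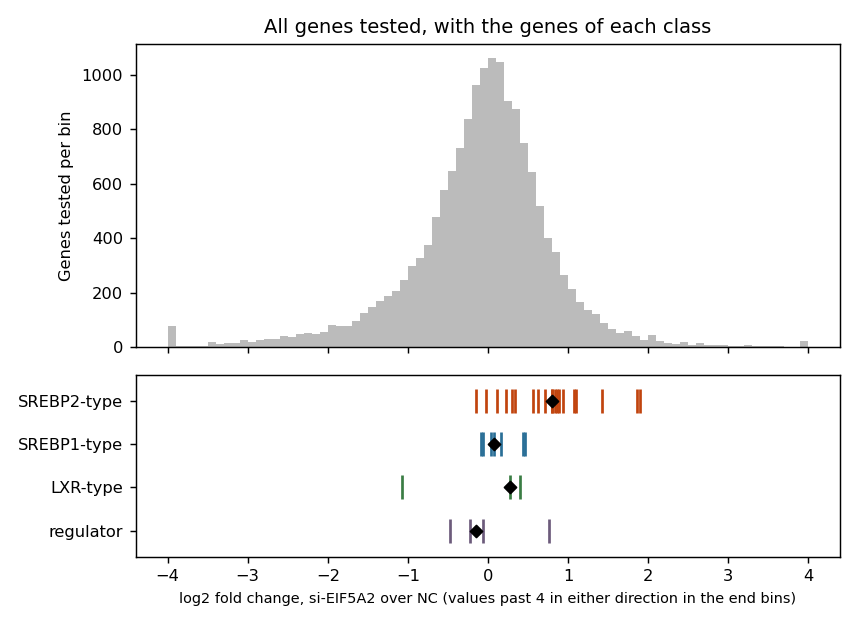
Upper panel: histogram of the log2 fold change (si-EIF5A2 over NC) of the 16208 genes tested, in genes per bin. Lower panel: each vertical tick is a gene of the class named on the left and each black diamond is the class median. The SREBP2-type ticks reach from -0.15 to 1.89 with a median of 0.80, and the SREBP1-type ticks from -0.082 to 0.47 with a median of 0.071.

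The same difference between the classes was seen library by library. The geometric mean of the 20 SREBP2-type genes was 58.6, 57.4 and 57.2 CPM in NC replicates 1 to 3 and 98.6, 90.0 and 103 CPM in si-EIF5A2 replicates 1 to 3, a ratio of the group means of 1.68. For the 7 SREBP1-type genes it was 211, 217 and 212 CPM in NC and 233, 229 and 245 CPM in knockdown libraries, a ratio of 1.11. For the 3 LXR-type genes it was 24.2, 20.8 and 20.9 CPM in NC and 19.3, 21.7 and 19.1 CPM in knockdown libraries, a ratio of 0.911. The NC and knockdown libraries thus lay apart for both SREBP classes and overlapped for the LXR-type genes. Summed over the class, the SREBP2-type genes took 1700 ± 19.5 CPM in NC and 3008 ± 76.6 CPM in knockdown libraries, and the SREBP1-type genes 2677 ± 54.8 and 2887 ± 40.6 CPM (n = 3 each, ± SD).

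Promoter sequences were at hand for 29 of the 34 genes (RefSeq, GRCh38.p14; ABCG1, ACAT2, FASN, FDFT1 and SQLE had none in the table used). They are shown because most SREBP2-type genes, though not all, rose. SREBPs are known to bind the sterol regulatory element and E-box letters, usually beside the CCAAT box bound by NF-Y. Windows from 250 bases before to 50 bases after each start site were searched on both strands for CCAAT, for the sterol element TCACNCCAC, for the E-box TCACGTGA and for the DR4 direct repeat of the LXR type. No match of TCACNCCAC or TCACGTGA in the 29 genes overlapped a CCAAT match. CCAAT was present in 15 of the 17 SREBP2-type genes with a window (88.2%) and in 4 of the 6 SREBP1-type genes (66.7%). It was in 42.9% of the tested genes with a window, in 42.8% of those called higher, and in 34.6% of all windows. All 10 of the called SREBP2-type genes with a window held it, and so did 5 of the 7 that were not called. TCACNCCAC was found in 1 of the 29 genes, SREBF2, in 1.46% of the tested genes with a window and in 1.13% of all windows. TCACGTGA was found in 1 of the 29 genes, INSIG1, in 2.23% of the tested genes with a window and in 0.980% of all windows. The LXR repeat was in none of the 29, in 0.00896% of the tested genes with a window and in 0.0199% of all windows. These matches are descriptions of the letters in the window and say nothing of binding. Only exact matches were searched, so a gene without a match may hold a variant element or one outside the window.

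The 200 bases before the start site are printed here 5′ to 3′ for 4 genes that rose (HMGCS1, INSIG1, MVD and MSMO1), for SREBF2, which holds the sterol element, and for SCD, an SREBP1-type gene that did not pass the test. Capitals mark CCAAT in either orientation (ATTGG on the strand shown), TCACNCCAC and TCACGTGA, and positions are counted from the start site. The windows lie at chr5:43313413-43313612, minus strand (HMGCS1, the upstream of its 2 start sites), chr7:155297678-155297877, plus strand (INSIG1), chr16:88663092-88663291, minus strand (MVD), chr4:165327469-165327668, plus strand (MSMO1), chr22:41832905-41833104, plus strand (SREBF2) and chr10:100347033-100347232, plus strand (SCD).
HMGCS1: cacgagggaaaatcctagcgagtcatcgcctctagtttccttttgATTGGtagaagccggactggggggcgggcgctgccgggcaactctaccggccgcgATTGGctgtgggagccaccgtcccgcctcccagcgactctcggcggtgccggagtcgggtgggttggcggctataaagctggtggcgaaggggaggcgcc
INSIG1: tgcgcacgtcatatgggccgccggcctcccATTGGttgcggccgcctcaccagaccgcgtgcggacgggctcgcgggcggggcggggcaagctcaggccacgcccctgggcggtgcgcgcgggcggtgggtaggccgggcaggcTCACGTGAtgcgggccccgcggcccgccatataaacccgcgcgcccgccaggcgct
MVD: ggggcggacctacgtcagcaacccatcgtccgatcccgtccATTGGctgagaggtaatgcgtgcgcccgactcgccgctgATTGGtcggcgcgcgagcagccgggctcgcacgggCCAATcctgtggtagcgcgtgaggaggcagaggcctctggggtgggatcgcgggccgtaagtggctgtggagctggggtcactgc
MSMO1: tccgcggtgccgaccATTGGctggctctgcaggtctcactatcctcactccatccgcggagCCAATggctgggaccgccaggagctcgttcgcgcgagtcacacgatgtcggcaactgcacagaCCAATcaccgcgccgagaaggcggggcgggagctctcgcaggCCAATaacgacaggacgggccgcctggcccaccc
SREBF2: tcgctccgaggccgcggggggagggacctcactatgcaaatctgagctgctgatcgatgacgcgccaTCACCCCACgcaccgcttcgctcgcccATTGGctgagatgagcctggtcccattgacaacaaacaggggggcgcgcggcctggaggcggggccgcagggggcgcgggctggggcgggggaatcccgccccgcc
SCD: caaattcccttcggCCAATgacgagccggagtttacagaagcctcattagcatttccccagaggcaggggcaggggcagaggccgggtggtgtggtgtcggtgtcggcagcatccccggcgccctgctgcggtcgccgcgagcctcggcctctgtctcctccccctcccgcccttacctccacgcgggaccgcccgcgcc
In HMGCS1 the boxes begin at -155 and -100, and in MVD at -159, -120 and -85. MSMO1 holds 4, beginning at -185, -139, -76 and -34. INSIG1 holds a CCAAT box at -170 and the E-box at -56, and SREBF2 the sterol element at -133 with a CCAAT box at -106. SCD holds a box at -186 and another at -229, outside the stretch printed.

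Of the 7 listed genes from acetyl-CoA to farnesyl diphosphate, 4 rose, 0 fell and 3 were not called. Their median log2 fold change was 0.87, and 11.1% of all genes tested were called higher. HMGCS1, which joins acetoacetyl-CoA and acetyl-CoA to HMG-CoA (minus strand of chromosome 5, from 43289395 to 43313512 in GENCODE release 29), had 85.7, 102 and 103 CPM in the NC libraries and 374, 346 and 358 CPM in the knockdown libraries. Every knockdown library was more than 3 times as high as any NC library. Its level was 3.71 times that of NC, a log2 fold change of 1.89 (SE 0.092, adjusted p = 7.60e-06, edgeR), rank 240 from the top among the 16208 genes tested. ACAT2, the cytosolic thiolase that makes acetoacetyl-CoA, had 82.1, 82.4 and 85.9 CPM in NC and 171, 185 and 179 CPM in knockdown libraries, a log2 fold change of 1.09 (SE 0.069). Its exons share 397 bases with TCP1 on the opposite strand, which had 270, 221 and 263 CPM in NC and 347, 326 and 358 CPM in knockdown libraries. The strand setting of the counting is not given in the sources used here, and the part of TCP1 in the ACAT2 value was not tested.

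MVK, the mevalonate kinase, rose from 36.8, 31.4 and 33.4 CPM to 56.3, 64.2 and 64.8 CPM, a log2 fold change of 0.87 (SE 0.10). MVD, which turns diphosphomevalonate into isopentenyl diphosphate, rose from 50.2, 40.9 and 41.7 CPM to 111, 124 and 122 CPM, a log2 fold change of 1.43 (SE 0.10). In both genes the lowest knockdown library lay above the highest NC library. MVK shares 306 exon bases with MMAB on the opposite strand, which had 33.3 to 42.5 CPM over the 6 libraries. The enzymes between and after them showed smaller differences. PMVK, the kinase that acts between MVK and MVD, had 30.1 ± 1.52 CPM in NC and 38.2 ± 3.61 CPM in knockdown libraries (n = 3 each, ± SD). FDPS, the farnesyl diphosphate synthase, had 154 ± 2.39 and 190 ± 16.9 CPM (n = 3 each, ± SD). The log2 fold changes of 0.34 (PMVK) and 0.30 (FDPS) passed the adjusted p (0.0300 and 0.0207, edgeR) but not the fold limit. FDPS shares 693 exon bases with RUSC1-AS1 on the opposite strand, which stayed between 0.651 and 1.21 CPM.

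IDI1, which interconverts isopentenyl and dimethylallyl diphosphate, could not be placed. It had 54.5, 83.9 and 25.2 CPM in NC and 142, 39.3 and 105 CPM in knockdown libraries, so libraries of a group differed from each other by more than 3-fold. The log2 fold change was 0.80 with a 95% interval from -0.85 to 2.46 (adjusted p = 0.403, edgeR). Its counts were between 1187 and 7257 per library, and the overlapping IDI2-AS1 was at or below 0.0565 CPM in every library.

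**Figure D2:**
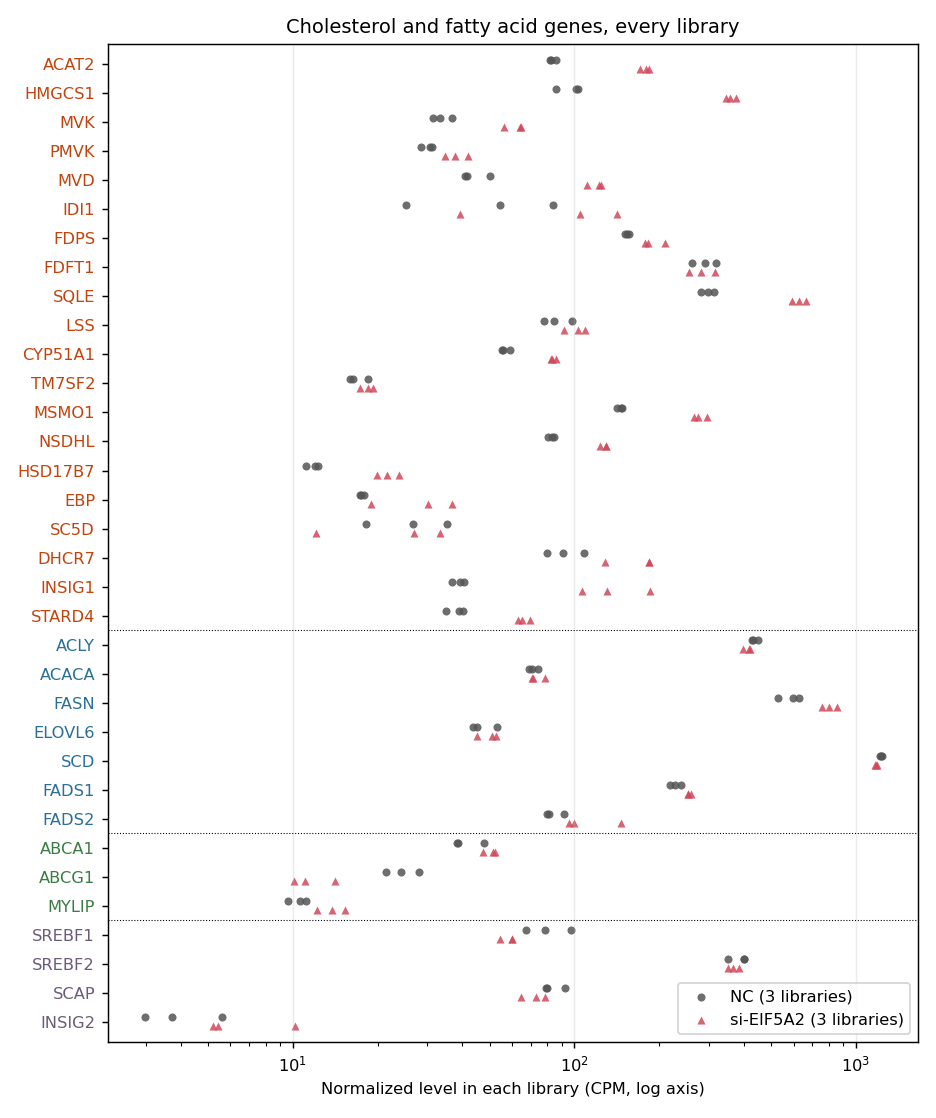
Level of each of the 34 genes (rows) in each library, in CPM on a log axis. Gray circles are the 3 NC libraries and red triangles the 3 knockdown libraries, dotted lines separate the SREBP2-type genes (top), the SREBP1-type genes, the LXR-type genes and the regulators (bottom). HMGCS1, MVD, SQLE and INSIG1 show the groups far apart, SCD shows 2 tight groups close together, and IDI1 and SC5D show wide spread within both groups.

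From squalene to cholesterol the rise was not carried by every step. Of the 11 listed genes of this stretch, 6 rose, 0 fell and 5 were not called. Their median log2 fold change was 0.62, and 11.1% of all genes tested were called higher. SQLE, the squalene epoxidase and a known control point of the pathway (plus strand of chromosome 8, from 124998497 to 125022283), had 282, 299 and 314 CPM in NC and 664, 590.2 and 625 CPM in knockdown libraries. Its level after knockdown was 2.10 times that of NC, a log2 fold change of 1.07 (SE 0.077, adjusted p = 3.47e-05, edgeR). FDFT1, the squalene synthase that acts just before it, had 317, 290.1 and 262 CPM in NC and 255, 315 and 282 CPM in knockdown libraries. The groups overlapped, and the 95% interval of its log2 fold change ran from -0.27 to 0.21, against 0.89 to 1.25 for SQLE. LSS, which closes the sterol rings, had 98.0, 77.9 and 84.5 CPM in NC and 92.1, 109 and 103 CPM in knockdown libraries, a log2 fold change of 0.22 with an interval from -0.027 to 0.47.

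Of the enzymes that strip the extra methyl groups from lanosterol, 3 rose and CYP51A1 was not called. MSMO1, the methylsterol monooxygenase, rose from 148, 142 and 147 CPM to 295, 266 and 275 CPM, a log2 fold change of 0.93 (SE 0.070). NSDHL, the dehydrogenase of the same complex, rose from 84.5, 83.3 and 80.7 CPM to 123, 129 and 129.6 CPM, a log2 fold change of 0.62 (SE 0.068). HSD17B7, the keto-reductase that follows, rose from 11.1, 12 and 12.3 CPM to 19.9, 23.8 and 21.6 CPM, a log2 fold change of 0.88 (SE 0.11). These 3 enzymes act in turn on the same intermediate, and NC and knockdown libraries did not overlap for any of them. CYP51A1, the lanosterol demethylase, had 56.7 ± 2.13 CPM in NC and 84.0 ± 1.74 CPM in knockdown libraries (n = 3 each, ± SD). At 1.48 times the NC level (adjusted p = 6.20e-04, edgeR) it lay just outside the fold limit, as NSDHL at 1.54 times lay just inside. CYP51A1 shares 79.4% of its exon bases with another protein-coding gene (ENSG00000285772) on the same strand, which was listed at 0 in every library. It shares 99 bases with a further same-strand gene (ENSG00000285953), at 6.07 CPM in si-EIF5A2 replicate 2 and at 0 in every other library. How the authors' counting divided reads between these genes is not given. TM7SF2, a sterol reductase, had 16.9 ± 1.4 and 18.4 ± 0.960 CPM (n = 3 each, ± SD), a log2 fold change of 0.11.

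At the end of the pathway the values were less even. DHCR7, which makes cholesterol from its last precursor in the Kandutsch-Russell branch, rose from 90.7, 79.7 and 108 CPM to 129, 185 and 184 CPM, a log2 fold change of 0.84 (SE 0.17, adjusted p = 0.00776, edgeR). EBP, the sterol isomerase, had 17.5, 17.3 and 17.9 CPM in NC and 30.3, 19.0 and 36.7 CPM in knockdown libraries. The NC libraries lay close together, and si-EIF5A2 replicate 2 was near them while the other two stood well above. EBP passed with a log2 fold change of 0.70 (SE 0.22, adjusted p = 0.0420, edgeR), and it kept the call in 1 of the 6 fits that left out a library, that without si-EIF5A2 replicate 2 (0.93). It was lost without NC replicate 1 (0.70), NC replicate 2 (0.69), NC replicate 3 (0.71), si-EIF5A2 replicate 1 (0.66) and si-EIF5A2 replicate 3 (0.48), with adjusted p from 0.110 to 0.119 in these fits, and with no filter on low counts (0.67, adjusted p = 0.0641). SC5D, the sterol desaturase, had 26.7, 18.1 and 35.2 CPM in NC and 33.3, 12.1 and 26.9 CPM in knockdown libraries. Its groups overlapped, and the 95% interval from -1.24 to 0.95 holds both a fall and a rise.

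**Figure D3:**
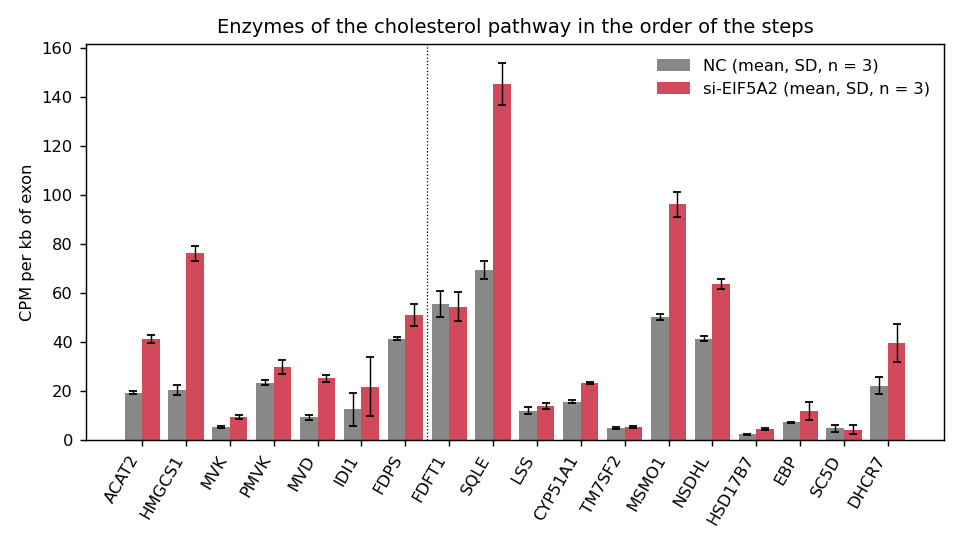
Level of the 18 listed enzymes from acetyl-CoA to cholesterol in the order of the steps, in CPM per kb of exon (mean, error bars SD, n = 3 libraries). Gray bars are NC, red bars si-EIF5A2, and the dotted line marks farnesyl diphosphate. SQLE went from 69.3 to 146 CPM per kb and HMGCS1 from 20.6 to 76.4 CPM per kb, while FDFT1 stood at 55.7 and 54.6.

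Divided by exon length, the levels of the enzymes were reordered. In NC libraries SQLE had the highest level of the 18 listed enzymes (69.3 CPM per kb of exon), followed by FDFT1 (55.7), MSMO1 (50.3), NSDHL (41.5) and FDPS (41.4). HMGCS1 stood at 20.6 CPM per kb, below all of these. In knockdown libraries SQLE (146 CPM per kb) and MSMO1 (96.2) led, HMGCS1 (76.4) had passed NSDHL (63.7), and FDFT1 (54.6) and FDPS (51.1) followed. In NC, FDFT1 and MSMO1 differed by less than their spread, as did NSDHL and FDPS, and after knockdown so did FDFT1 and FDPS. HSD17B7 was the lowest enzyme in NC at 2.47 CPM per kb, and in knockdown libraries HSD17B7 (4.55) and SC5D (4.33) were lowest and did not differ beyond their spread. Exon length here is the union of all annotated exons, so genes with rare long transcripts come out low.

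Outside the enzymes, both SREBP2-type genes with other roles rose. INSIG1, which holds SCAP and the SREBPs in the endoplasmic reticulum and is itself a known SREBP target (plus strand of chromosome 7, from 155297776 to 155310235), had 36.9, 40.7 and 39.2 CPM in NC and 130.1, 106 and 186 CPM in knockdown libraries. The NC libraries were tight and the knockdown libraries spread, but all of them lay far above every NC library. The log2 fold change was 1.86 (SE 0.20, adjusted p = 5.06e-04, edgeR), rank 255 among all genes tested, and between 1.60 and 2.02 with each library left out. This differed from the value of HMGCS1 (1.89) by less than its SE, and INSIG1 was the higher of the pair without si-EIF5A2 replicate 1 (1.90 against 1.85) or si-EIF5A2 replicate 2 (2.02 against 1.92). STARD4, a carrier that moves sterol between membranes, rose from 40.1, 35.1 and 38.8 CPM to 69.4, 65.2 and 62.8 CPM, a log2 fold change of 0.79 (SE 0.089).

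The 4 genes of the regulator class were not called, whereas INSIG1, placed among the SREBP2-type genes, also acts in SREBP control and was called. SREBF2 had 402, 399.6 and 351 CPM in NC and 352, 383 and 365 CPM in knockdown libraries, and the 95% interval of its log2 fold change ran from -0.25 to 0.12. SREBF1 had 97.5, 78.3 and 67.1 CPM in NC and 60.2, 54.3 and 60.2 CPM in knockdown libraries. All 3 knockdown libraries were lower, with a log2 fold change of -0.48 (SE 0.14, adjusted p = 0.0270, edgeR) that passed the adjusted p but not the fold limit. Without NC replicate 3 the value was -0.60 and SREBF1 was called. The table does not separate the SREBP1a and SREBP1c transcripts of this gene, and 556 of its exon bases are shared with RAI1 on the opposite strand (42.4 to 49.5 CPM in NC and 34.2 to 38.8 CPM after knockdown). SCAP had 92.3, 80.1 and 79.2 CPM in NC and 64.5, 72.8 and 78.3 CPM in knockdown libraries, a log2 fold change of -0.22 with an interval from -0.46 to 0.015 and no overlap between the groups. INSIG2, the paralog of INSIG1, had the lowest level per kb of exon of the 34 genes (1.04 CPM per kb in NC). It had 2.97, 3.71 and 5.59 CPM in NC and 5.20, 5.42 and 10.2 CPM in knockdown libraries. Its groups overlapped, and the interval of its log2 fold change (0.76) ran from -0.028 to 1.56.

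**Figure D4:**
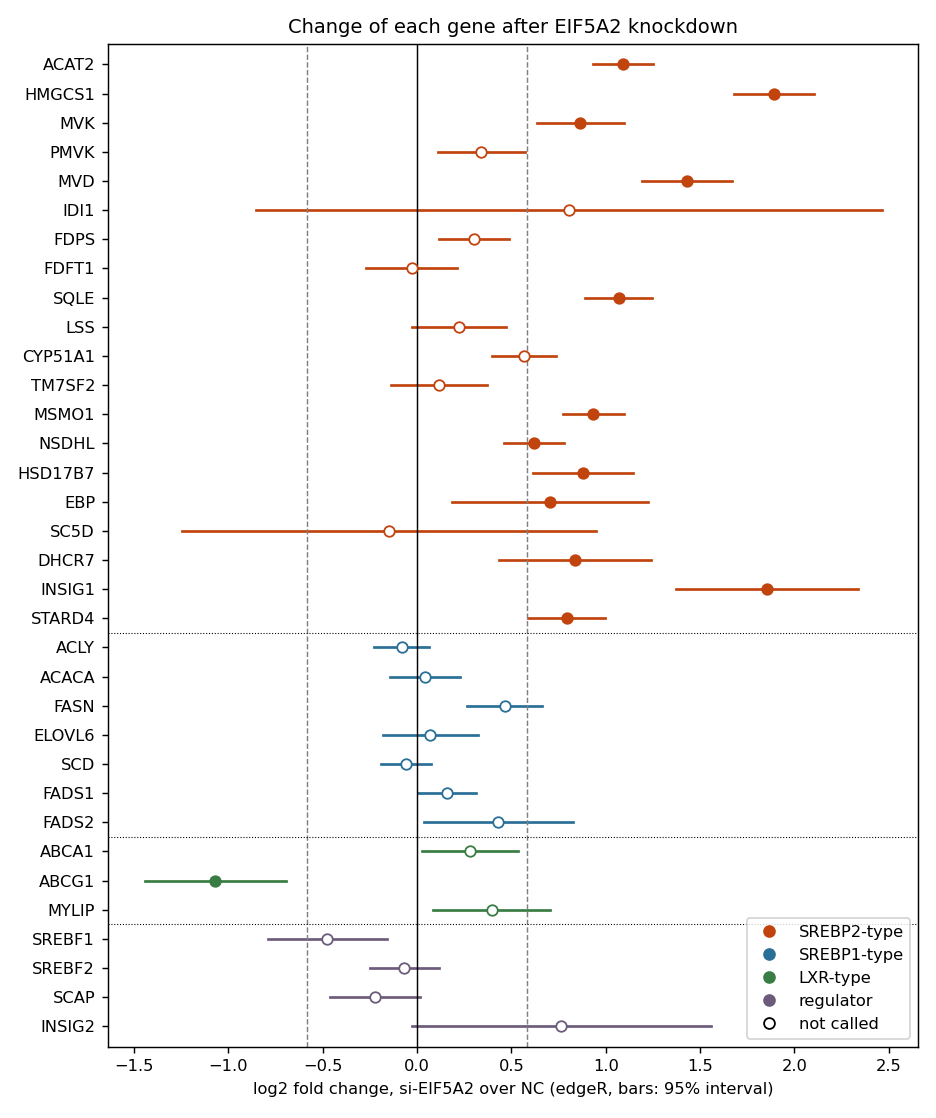
Log2 fold change (si-EIF5A2 over NC) of each of the 34 genes from edgeR, with bars for the 95% interval. Filled circles met both limits of a call (dashed lines mark 1.5-fold), open circles did not, and colors give the class. The called rises are all SREBP2-type genes, from NSDHL (0.62) to HMGCS1 (1.89), and the called fall is ABCG1 (-1.07).

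Of the 7 SREBP1-type genes of fatty acid synthesis, SCD, ACLY, ACACA and ELOVL6 had log2 fold changes between -0.082 and 0.071. SCD, which puts the first double bond into saturated fatty acids, had the highest level per kb of exon of the 34 genes (229 CPM per kb in NC). It had 1229, 1233 and 1218 CPM in NC and 1176, 1170.5 and 1187 CPM in knockdown libraries. The groups did not overlap, yet the log2 fold change was -0.058 with a 95% interval from -0.19 to 0.076, far inside the fold limit. ACLY, which makes cytosolic acetyl-CoA from citrate and so feeds both routes, had 436 ± 10.8 and 412 ± 12.1 CPM (n = 3 each, ± SD), a log2 fold change of -0.082 with an interval from -0.23 to 0.066. ACACA, which makes malonyl-CoA, had 71.4 ± 2.80 and 73.5 ± 4.66 CPM, and ELOVL6, an elongase of saturated chains, had 47.2 ± 5.05 and 49.6 ± 4.11 CPM (n = 3 each, ± SD). Their groups overlapped, and the upper ends of their intervals were 0.23 and 0.32. For these 4 genes the interval thus stayed within the 1.5-fold limit.

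FASN, the fatty acid synthase (minus strand of chromosome 17, from 82078333 to 82098332), went furthest of the SREBP1-type genes. It had 627, 596 and 528 CPM in NC and 759.7, 853 and 803 CPM in knockdown libraries, so the groups did not overlap. At 1.38 times the NC level (log2 fold change 0.47, SE 0.086, adjusted p = 0.00387, edgeR) it passed the adjusted p and not the fold limit, and its 95% interval ran from 0.27 to 0.66, against 1.68 to 2.11 for HMGCS1. The desaturases FADS1 and FADS2, which make polyunsaturated fatty acids, had log2 fold changes of 0.16 and 0.43 (adjusted p = 0.0984 and 0.0852, edgeR). They lie on opposite strands of chromosome 11, with FADS1 annotated within the span of FADS2. FADS1 had 219, 228 and 238 CPM in NC and 259, 253 and 254 CPM in knockdown libraries, with no overlap. FADS2 had 81.2, 91.7 and 80.2 CPM in NC and 95.7, 99.4 and 146 CPM in knockdown libraries, and without si-EIF5A2 replicate 3 its log2 fold change was 0.20. The exons of FADS1 and FADS2 share 490 bases on opposite strands, and FADS2 shares 49 bases on the same strand with FEN1, which fell from 98.8, 93.5 and 102 CPM to 28.3, 29.9 and 26.2 CPM. The part of these neighbors in the FADS values was not tested.

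The LXR-type genes went different ways. ABCG1, which exports sterol to lipoproteins (plus strand of chromosome 21, from 42199689 to 42297244), had 28.0, 24.3 and 21.4 CPM in NC and 10.1, 14.1 and 11 CPM in knockdown libraries. All knockdown libraries were lower, and the gene fell by 1.07 on the log2 scale (SE 0.16, adjusted p = 0.00143, edgeR), staying between -1.22 and -0.96 with each library left out. ABCA1, which hands cholesterol to apolipoprotein A-I, had 47.6, 38.7 and 38.1 CPM in NC and 51.4, 47.3 and 52.2 CPM in knockdown libraries, a log2 fold change of 0.28 (adjusted p = 0.0847, edgeR). NC replicate 1 overlapped the knockdown libraries. MYLIP, a ubiquitin ligase that degrades lipoprotein receptors, had 10.5 ± 0.772 and 13.8 ± 1.62 CPM (n = 3 each, ± SD), a log2 fold change of 0.40 (adjusted p = 0.0512, edgeR) with no overlap between the groups.

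The 2 groups of libraries stood fully apart in 24 of the 34 genes, of which 19 were higher and 5 lower after knockdown. Among all genes tested, 51.2% did not overlap, and 24.7% were higher without overlap. For the SREBP2-type genes the count was 15 of 20, all higher, and for the SREBP1-type genes it was 5 of 7, of which 3 were higher and 2 lower. Non-overlap was thus frequent in both classes, at median log2 fold changes of 0.80 and 0.071.

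Other lipid genes, taken as 8 lists with 126 genes, went both ways. Of the 116 that were tested, 16 rose and 18 fell, together 29.3% against 24.6% of all genes tested. Their log2 fold changes had a median of 0.11. PLIN2, a lipid droplet coat gene, and SOAT2, ACSL6 and RXRG were listed at 0 in every library.

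Among the 15 genes for SREBP processing and turnover, 4 rose and 1 fell, together 33.3% against 24.6% of all genes tested. MBTPS1, the protease that makes the first cut in SREBPs, rose from 81.0 ± 3.48 to 145 ± 15.6 CPM (n = 3 each, ± SD), a log2 fold change of 0.84. ERLIN2 (0.87), FBXW7 (0.88) and TRIB1 (0.95), which act in protein turnover or its control, rose as well. SEC23A, a coat protein of the vesicles that carry cargo to the Golgi, fell from 115 ± 13.8 to 45.4 ± 5.73 CPM (n = 3 each, ± SD), a log2 fold change of -1.34.

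In the isoprenoid branches that leave the pathway at farnesyl diphosphate, 2 of 15 genes rose and 4 fell. Together these were 40.0%, against 24.6% of all genes tested. GGPS1, which makes geranylgeranyl diphosphate, rose from 12.8 ± 1.57 to 24.4 ± 2.90 CPM (n = 3 each, ± SD), and RABGGTB, a subunit of the enzyme that puts this lipid on Rab proteins, had a log2 fold change of 0.66. FNTB, the beta subunit of protein farnesyltransferase, fell from 33.9 ± 1.85 to 10.8 ± 0.768 CPM (n = 3 each, ± SD), a log2 fold change of -1.65. RCE1 (-0.88) and ICMT (-0.67), which trim and methylate prenylated proteins, fell too.

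Of the 12 tested genes for sterol transport and esterification, 2 rose and 2 fell, together 33.3% against 24.6% of all genes tested. OSBP, an oxysterol binding protein, rose from 69.8 ± 5.16 to 135 ± 4.75 CPM, and NPC1, which releases cholesterol from lysosomes, from 168 ± 0.728 to 256 ± 16.6 CPM (n = 3 each, ± SD). OSBPL9 (-1.27) and STARD3 (-0.96) fell. Of the 7 tested side genes of sterol synthesis, RDH11 fell (-1.29), and of the 8 tested LXR receptors and further LXR targets, LPCAT3 fell (-1.13).

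The 25 further fatty acid synthesis genes tested were split, with 4 higher and 4 lower, together 32.0% against 24.6% of all genes tested. ACSS2, which makes acetyl-CoA from acetate, fell from 39.6 ± 1.26 to 12.1 ± 1.48 CPM (n = 3 each, ± SD), a log2 fold change of -1.71, against -0.082 for ACLY. ELOVL2, an elongase of polyunsaturated chains, fell from 10.6 ± 1.14 to 2.41 ± 0.492 CPM (n = 3 each, ± SD), a log2 fold change of -2.14. ME1 (1.15), a source of NADPH, and the elongase ELOVL4 (1.14) rose, while HACD1 (-0.87) and MECR (-0.85) fell. The other two that rose, named after their values were seen, were the elongase ELOVL1 (from 171 ± 5.11 to 282 ± 8.96 CPM, log2 fold change 0.72) and FADS3, a paralog of FADS1 and FADS2 (from 84.1 ± 5.10 to 134 ± 11.4 CPM, log2 fold change 0.67; n = 3 each, ± SD). For glycerolipid synthesis, GPAT4 rose (0.66) and GPAT3 fell (-1.43) among 14 tested genes, together 14.3% against 24.6% of all genes tested.

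Fatty acid oxidation, the reverse process, showed 2 genes higher and 4 lower among 20 tested. The median of their log2 fold changes was -0.0025. ETFA, which passes electrons from the oxidation steps, fell from 65.3 ± 10.4 to 16.6 ± 0.773 CPM, and HADH, a dehydrogenase of the cycle, from 26.5 ± 2.38 to 11 ± 0.453 CPM (n = 3 each, ± SD). ACADS (-0.99) and ACOX3 (-0.59) fell, and DECR1 (0.87) and SLC25A20 (1.19), the carnitine carrier, rose.

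The calls of 7 of these genes were lost in at least 1 of the fits that left out a library. NPC1 lost its call without si-EIF5A2 replicate 3 (0.55), GPAT4 without NC replicate 3 (0.57), and MECR without NC replicate 1 (-0.83) or NC replicate 2 (-0.80). ERLIN2, which had 87.9, 47.1 and 72.2 CPM after knockdown, lost it when an NC library or si-EIF5A2 replicate 3 was left out (log2 fold changes of 0.79 to 0.92). ICMT (-0.74 to -0.45) lost it whichever library other than si-EIF5A2 replicate 2 was left out, and so did ACOX3 (-0.64 to -0.45). SLC25A20 (0.80 to 1.38) lost it whichever library other than si-EIF5A2 replicate 3 was left out.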

How the data were processed

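RNA-seq of SKOV3 cells (3 NC and 3 si-EIF5A2 libraries) was analyzed from 1 table. The authors sequenced paired-end mRNA libraries and used StringTie and ballgown for expression levels. The table they deposited holds estimated counts of genes as whole numbers, with no scaling for depth or length. The aligner, build and annotation are not given in the sources used here, and the processing notes in the labels name mouse builds, which do not match the human identifiers. Low counts cluster near multiples of 3.71, so 1 fragment may stand for several of the counts that make up the totals of 46900204 to 74142267. The precision of a value comes from the spread of 3 libraries.

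Of 58825 identifiers, 58472 had a symbol. Positions, exon lengths and exon overlaps came from GENCODE release 29 (GRCh38), which holds 58552 of them. edgeR 4.0.16 (R 4.3.3) was run on all 6 libraries with condition as the only term (filterByExpr, TMM, robust quasi-likelihood fit, Benjamini-Hochberg adjustment over 16208 genes). A call needed both an adjusted p below 0.05 and a change of more than 1.5-fold. SE is the absolute log2 fold change over the root of F, and 95% intervals use the total degrees of freedom of the test. The deposited estimated counts were already whole, so no rounding was needed.

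The 34 genes, their classes, the lists and the motifs were chosen with earlier results of these data known. The classes follow textbook targets, and several genes answer to more than 1 factor. Every gene called among the 34 and every regulator is given by library, the others by library, by mean and SD or by range, and of the other lipid lists the called genes (up to 6 a list), apart from some that are not reported here. The alternatives were normalization by RLE or by the upper quartile, DESeq2 1.42.0, 2 other filters, the replicate number as a block, each library left out, 2 other call rules and, added after the data were seen, counts divided by their step. The fit was tested on simulated counts with known changes. CPM were computed from the deposited counts with TMM library sizes.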

Additional observations from a re-analysis of the deposited data

How the results depend on the processing

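With DESeq2, RLE and upper-quartile normalization, both other filters, the replicate block, each library left out and the counts divided by their step, 11 of the 12 SREBP2-type genes that rose were called under every setting, and EBP was the exception. ABCG1 was called lower in all 13 settings. With the limits of the study's methods (more than 2-fold, p below 0.05 without adjustment), 6 of the 34 genes were called, against 13. The number of SREBP2-type genes among the 20 was then 5, against 12. Of all genes tested, 14.6% passed the limits of the methods, against 24.6% with the main limits. The SREBP1-type count was 1 (FASN) and the regulator count 1 (SREBF1, lower) with an adjusted p alone. The count of other lipid genes, of 116 tested, was 66 with an adjusted p alone and 15 with the limits of the methods, against 34. Of all genes tested, 36.9% passed an adjusted p alone. With each library left out, the regulator count ran from 0 to 1, and FDFT1 (-0.11 to 0.041), SC5D (-0.46 to 0.17) and ACACA (-0.018 to 0.073), none of them called, took both signs. CYP51A1 was called without NC replicate 1 (0.60).

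Same-numbered libraries did not deviate together (correlations of -0.024, 0.0052 and -0.0027), so the replicate numbers were not read as pairs. With the replicate block, 14 of the 34 genes were called, and the regulator count was 1 (INSIG2, log2 fold change 0.74, adjusted p = 0.0239, edgeR). The block changed no other call among the 34 genes, not every library correlated best with its own number, and the cause of the INSIG2 difference was not tested.

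With 3 libraries a group, IDI1 and SC5D could not be placed on either side of 0, and a level is limited by the fragments behind it, whose number is not known.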
